A study of Bos taurus with 18 samples.

Results

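Transcripts of 10 genes of the prolactin signalling route were followed by name through 18 RNA-seq libraries of MAC-T, a bovine mammary epithelial cell line that was immortalised. They are 10 of the 30642 genes in the deposited count table: the receptor PRLR, the kinase JAK2, the transcription factors STAT5A, STAT5B and STAT3, the feedback inhibitors CISH, SOCS1, SOCS2 and SOCS3, and the alveolar transcription factor ELF5. They were chosen by name and role, with no threshold on measured values, but with earlier results of these data known. The study asked how these cells respond to a lactogenic medium, to heat and to recovery from heat. It has 6 groups of 3 libraries, and all cells were kept for 4 days on their medium.

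All groups received insulin at 5 µg/ml and hydrocortisone at 1 µg/ml, so the cells labelled undifferentiated were not free of lactogenic hormones. The unheated undifferentiated group (NHSUD) stayed in this basal medium at 37 °C. The unheated differentiated group (NHSD) had 5 µg/ml ovine prolactin, 10 µg/ml dexamethasone and serum added. The heated undifferentiated (HSUD) and heated differentiated (HSD) groups spent the final 1 h at 42 °C. The recovery groups, both in lactogenic medium, were returned to 37 °C after that hour for 2 h (D2R) or 6 h (D6R). Both unheated groups shared a plate, both heated groups a second plate and both recovery groups another, so heat or recovery and the plate cannot be told apart. The protocol describes 3 runs of the whole experiment and libraries carry replicate numbers 1 to 3. RNA of 2 technical replicates was pooled for each library. P-values therefore measure the spread between repeats of a single cell line.

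Prolactin binds PRLR at the cell surface and activates JAK2, which phosphorylates STAT5A and STAT5B. The STAT5 proteins then enter the nucleus and drive milk protein genes, ELF5 and the inhibitors CISH, SOCS1, SOCS2 and SOCS3, which in turn damp the receptor complex. STAT3 answers mainly to cytokines of the interleukin 6 family and is known in the mammary gland for its role in involution, while ELF5 sets the secretory alveolar fate. Much of this signalling runs through phosphorylation, which RNA-seq does not measure.

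Libraries held between 40891703 and 61155755 counted reads. Levels are given as TMM-scaled CPM, which are reads relative to the library total after correction for library composition. The heat label was checked with HSPA1A, a stress-induced chaperone, which averaged 403 ± 47.6 CPM in NHSUD and 8290 ± 1830 CPM in HSUD (SD, n = 3), with no overlap. The recovery groups were not separate in it: HSPA1A lay between 1010 and 3930 CPM in D2R and between 389 and 1720 CPM in D6R, and the chaperone HSPH1 between 370 and 1640 CPM in D2R and between 201 and 693 CPM in D6R. The epithelial label was checked with marker lists: KRT8 averaged 3890 CPM and EPCAM 112 CPM, against 0.101 CPM for the fibroblast gene COL1A1, 0.106 CPM for the endothelial gene PECAM1 and 0.008 CPM for the leukocyte gene PTPRC. Basal keratins were present too (KRT5, 12000 CPM), as was DCN at 588 CPM, which belongs to the fibroblast list. Their part in the values of the prolactin genes was not tested. In a bulk library, fewer cells that express a gene and less RNA per cell cannot be told apart.

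With all 18 libraries in the fit, no transcript of the route passed the test between any groups, while 6 of the 9 that could be tested differed by replicate number, a share near the 53.6% of all genes that did. Of the 10 genes, 9 passed the low-count filter and were tested among 15158 genes; ELF5 did not pass. Over 9 comparisons of these 9 genes, 0 of 81 tests passed an adjusted p under 0.05 with edgeR's quasi-likelihood test. The smallest adjusted p was 0.952, and 1 test had an unadjusted p under 0.05. With the replicate number as a block, 0 of 81 tests passed, the smallest adjusted p was 0.202 and 4 had an unadjusted p under 0.05. With DESeq2, 0 passed and 2 had an unadjusted p under 0.05. The 1 without the block lay between 2 h and 6 h of recovery (3.86% of all genes), as did the 2 in DESeq2 (4.59%). Of the 4 with the block, 3 lay there (11.9% of all genes) and 1 at 2 h against unheated cells (10.2%). A test of any difference among the 6 groups called 0 of the 9, against 0.33% of all genes (50 of 15158), with 0 of the 9 below an unadjusted p of 0.05 (7.22% of all genes) and 0 called in DESeq2, against 2.87%. With the block it called 0 of the 9 against 8.42% of all genes, and 2 members, STAT5A (adjusted p = 0.101) and CISH (adjusted p = 0.149), had an unadjusted p under 0.05 in edgeR, against 27.7% of all genes.

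PRLR and ELF5, the entry and an end point of the route, lay near the counting floor, taken as a median under 10 raw reads or removal by the filter. PRLR had a median of 8 reads per library and 178 reads in all. Its raw counts in replicates 1, 2 and 3 were 8, 10 and 16 in NHSUD, 6, 18 and 8 in NHSD, and 1, 22 and 4 in HSUD. They were 12, 19 and 6 in HSD, 6, 10 and 6 in D2R, and 4, 18 and 4 in D6R. Counts of the 6 groups overlapped throughout, and replicate 2 was the highest in 5 of 6 groups. In TMM-scaled CPM, group means of PRLR ran from 0.149 ± 0.0278 in D2R through D6R, HSUD, NHSD and NHSUD to 0.252 ± 0.125 in HSD (SD, n = 3). No neighbours in that order were separated. For lactogenic against basal medium the PRLR log2 fold change was -0.14, with a 95% interval from -1.81 to 1.54. That interval leaves room for a several-fold difference either way.

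ELF5 had a median of 2 reads, 52 reads in all and 0 reads in 8 of 18 libraries. Its counts in replicates 1 to 3 were 0, 0 and 8 in NHSUD, 0, 2 and 2 in NHSD, and 0, 0 and 0 in HSUD. They were 6, 0 and 14 in HSD, 2, 2 and 4 in D2R, and 0, 2 and 10 in D6R. A library with 0 reads allows up to 3 reads, which is 0.0491 to 0.0731 CPM in the libraries concerned, and the 3 HSUD libraries together allow 0.0222 CPM; these limits cover counting error only. No fold is given for ELF5, since most libraries lay at or under that limit. Of its 52 reads, 38 came from replicate 3.

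Counts of both genes were nearly always even: 18 of 18 libraries for ELF5, zeros included, and 16 of 18 for PRLR. Of the counts between 1 and 10 in the whole deposited set, 74.2% were even. Whether each mate of a read pair was counted is not given in the sources used here. If it was, the number of independent fragments behind these values is smaller than the read counts, and each limit given above for 0 reads would be 2 times as high.

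**Figure D1:**
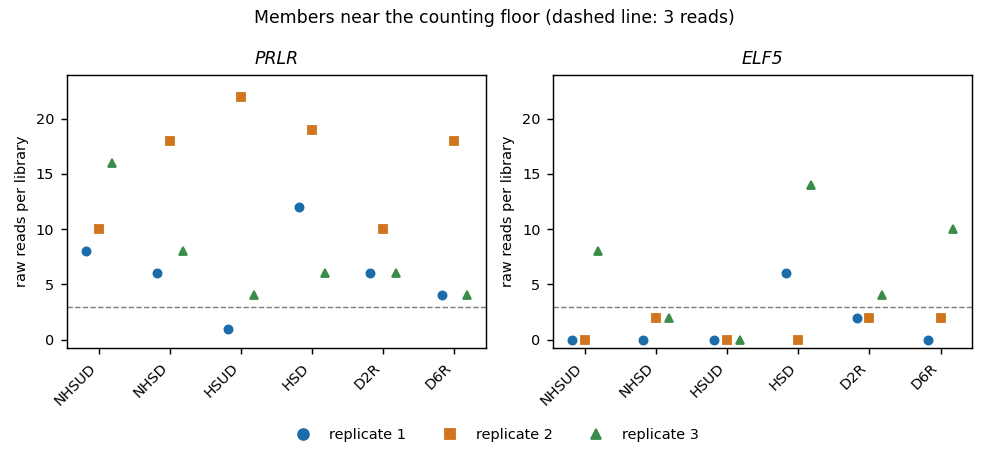
Raw reads of PRLR (left) and ELF5 (right) in each of the 18 libraries by group, with symbols for the 3 replicate numbers and a dashed line at 3 reads, the limit that a count of 0 allows. PRLR stays between 1 and 22 reads with replicate 2 usually on top, and ELF5 is at 0 in all HSUD libraries and reaches 14 reads in a single HSD library.

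The other 8 genes were well counted, from a median of 79 reads for SOCS1 to 3997 for STAT3, and each is described here in the order of the route. Levels are TMM-scaled CPM, which are not corrected for transcript length, so they are compared between libraries and not between genes.

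JAK2, the kinase bound to the receptor, was the steadiest, with a coefficient of variation of 8.71% over the 18 libraries. Its group means ran from 35.4 ± 3.6 CPM in NHSD through D2R, HSUD, NHSUD and HSD to 40 ± 1.62 CPM in D6R (SD, n = 3). All neighbours in that order overlapped, and its ends were separate, with 38.7 to 41.8 CPM in D6R and 31.5 to 38.6 CPM in NHSD.

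STAT5A, the main STAT of the lactating gland, stood at 9.06, 9.51 and 13.7 CPM in replicates 1 to 3 of NHSUD and at 7.63, 8.17 and 12 CPM in NHSD. It stood at 7.99, 9.47 and 9.43 CPM in HSUD and at 8.46, 8.32 and 8.27 CPM in HSD. After recovery it stood at 8.04, 6.56 and 8.12 CPM in D2R and at 9.11, 11.9 and 13 CPM in D6R. D2R was the lowest group, just below and separate from HSD, and D6R was the highest; the groups between overlapped with their neighbours.

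STAT5B, its close paralog, was also lowest in D2R, at 5.27 ± 0.495 CPM, then came NHSD, HSUD, HSD and D6R, and NHSUD was highest at 7.11 ± 0.567 CPM (SD, n = 3). No neighbours in that order were separated. Reads can be shared between STAT5A and STAT5B, and the handling of multi-mapped reads is not given in the sources used here, so the split between them is uncertain. Their summed level does not rest on that split, and averaged 17.8 ± 2.96 CPM in NHSUD, 15.5 ± 2.89 in NHSD, 15.3 ± 1.18 in HSUD, 14.7 ± 0.83 in HSD, 12.8 ± 1.05 in D2R and 18.2 ± 2.97 in D6R (SD, n = 3). The ratio of STAT5A to STAT5B reads averaged between 1.32 in HSD and 1.66 in D6R. In the RefSeq annotation STAT5B, STAT5A and STAT3 lie next to each other, apart from a transfer RNA gene between the STAT5 genes.

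STAT3, the involution-associated STAT, stood at 74.2, 91.7 and 133 CPM in replicates 1 to 3 of NHSUD, at 66.4, 89.8 and 121 CPM in NHSD, and at 71.5, 94.7 and 96.8 CPM in HSUD. It stood at 69.6, 78.6 and 94 CPM in HSD, at 74.5, 70.7 and 93 CPM in D2R, and at 72.9, 79.9 and 113 CPM in D6R. The groups overlapped in full, and replicate 3 was the highest in 6 of 6 groups.

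CISH, a classical STAT5 target that binds the activated receptor, stood at 6.29, 8.42 and 11.8 CPM in replicates 1 to 3 of NHSUD, at 5.81, 7.46 and 12 CPM in NHSD, and at 7.37, 9.88 and 13.3 CPM in HSUD. It stood at 7.22, 8.84 and 12.8 CPM in HSD, at 6.42, 7.24 and 10.7 CPM in D2R, and at 5.36, 8.09 and 8.53 CPM in D6R. Every group held the same pattern, with replicate 1 the lowest and replicate 3 the highest in 6 of 6, and group ranges overlapped.

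SOCS1, which blocks JAK2 directly, stood at 1.2, 1.59 and 0.852 CPM in NHSUD and at 1.87, 1.78 and 1.84 CPM in NHSD. It stood at 1.76, 1.84 and 0.961 CPM in HSUD and at 2.39, 1.82 and 1.46 CPM in HSD. After recovery it stood at 2.27, 1.23 and 0.972 CPM in D2R and at 1.42, 3.64 and 1.6 CPM in D6R. NHSD lay wholly above NHSUD, and the D6R mean of 2.22 ± 1.24 CPM (SD, n = 3) rested on replicate 2, with 195 raw reads against 60 and 86.

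SOCS2, an inhibitor best known from growth hormone signalling, stood at 9.89, 7.22 and 4.2 CPM in NHSUD, at 9.88, 7.96 and 6.48 CPM in NHSD, and at 7.56, 6.42 and 4.93 CPM in HSUD. It stood at 7.87, 5.83 and 6.31 CPM in HSD, at 7.3, 5.43 and 4.58 CPM in D2R, and at 7.27, 9.4 and 6.71 CPM in D6R. Replicate 1 was the highest in 5 of 6 groups and replicate 3 the lowest in 5 of 6, where CISH had them the other way round, and no neighbouring groups were separated.

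SOCS3, the inhibitor of STAT3 signalling through gp130, had group means between 13.9 ± 2.45 CPM in HSUD and 16.7 ± 2.34 CPM in D2R (SD, n = 3). D6R alone spanned its whole range over the 18 libraries, from 11.5 to 19.4 CPM, and no neighbouring groups were separated.

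**Figure D2:**
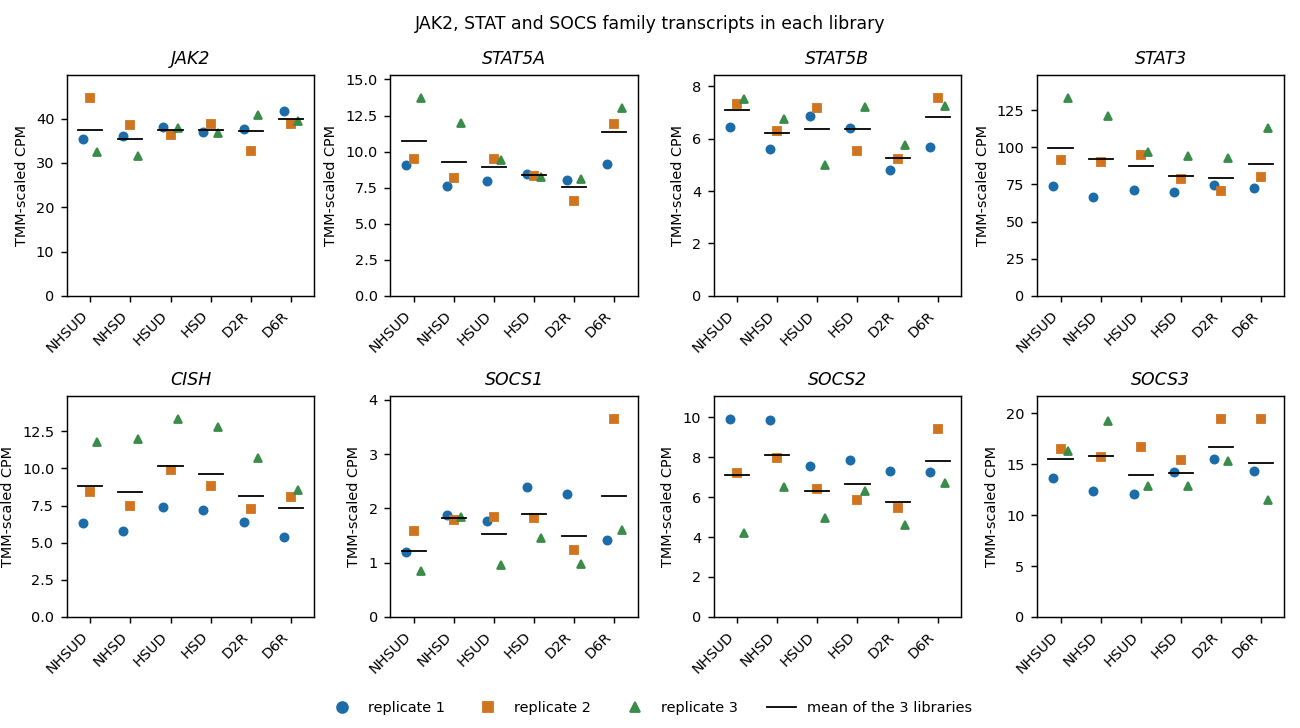
TMM-scaled CPM of the 8 well-counted genes in each library, by group; symbols mark the 3 replicate numbers, bars the mean of 3 libraries, and every axis starts at 0. Group ranges overlap in nearly all panels, while CISH and STAT3 are highest in replicate 3 in 6 of 6 groups.

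The first comparison asked whether the lactogenic medium, which contains the ligand of the route, moved its transcripts. SOCS1 had the largest difference of the 9, at 1.83 ± 0.0505 CPM in NHSD and 1.21 ± 0.37 CPM in NHSUD (SD, n = 3). Its log2 fold change was 0.59 (SE 0.401, 95% interval -0.25 to 1.44), and it did not pass the test (edgeR adjusted p = 1). SOCS1 was higher in 3 of 3 replicate pairs. With the replicate block its log2 fold change was 0.65 (95% interval -0.02 to 1.33, edgeR unadjusted p = 0.0578, adjusted p = 0.957). STAT5A was lower by a log2 fold change of -0.21 (95% interval -0.64 to 0.22) and STAT5B of -0.19 (95% interval -0.58 to 0.19), each lower in 3 of 3 replicate pairs, and neither passed. CISH stood at -0.07 (95% interval -0.75 to 0.61), SOCS2 at 0.19 (95% interval -0.40 to 0.78) and SOCS3 at 0.03 (95% interval -0.40 to 0.46). With the replicate block the intervals were narrower, at -0.37 to 0.20 for CISH, -0.15 to 0.61 for SOCS2 and -0.29 to 0.35 for SOCS3, and still held 0. They do not show that the medium left the genes alone.

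Of the 9 genes, edgeR called 0 for the medium without heat, against 0% of all genes, and 0 had an unadjusted p under 0.05, against 1.67% of all genes; DESeq2 called 0, against 0%. With the replicate block the count over all genes was 1 (0.0066%) and over the 9 genes 0. The libraries of 1 of the 9, SOCS1, did not overlap between the media, against 5.75% of all genes. Among the 9, 3 were higher and 6 lower in lactogenic medium, with a median log2 fold change of -0.08. Over all genes the median was -0.000883 and 49.8% were higher.

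In heated cells the medium gave the same count. EdgeR called 0 of the 9, against 0% of all genes (0.0198% with the replicate block, again with 0 of the 9), 0 had an unadjusted p under 0.05, against 1.76%, and DESeq2 called 0. The libraries of 0 of the 9 were free of overlap, against 5.52% of all genes. SOCS1 averaged 1.89 ± 0.468 CPM in lactogenic and 1.52 ± 0.485 CPM in basal medium (SD, n = 3), with overlapping libraries and a log2 fold change of 0.32 (95% interval -0.53 to 1.16). STAT5B and JAK2 differed by 0.005 and 0.0028 on the log2 scale.

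The next comparison asked what 1 h at 42 °C did. In undifferentiated cells STAT5A stood at 8.96 ± 0.844 CPM after heat and 10.7 ± 2.53 CPM before (SD, n = 3), a log2 fold change of -0.26 (95% interval -0.69 to 0.17). CISH stood at 10.2 ± 2.98 CPM after heat and 8.84 ± 2.78 CPM before, a log2 fold change of 0.20 (95% interval -0.47 to 0.88), and was higher in 3 of 3 replicate pairs. In differentiated cells CISH was again higher in 3 of 3 pairs, with a log2 fold change of 0.19 (95% interval -0.49 to 0.87), while STAT3 stood at -0.19 (95% interval -0.69 to 0.31) and SOCS2 at -0.28 (95% interval -0.87 to 0.31). None of these passed the test.

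In undifferentiated cells edgeR called 0 of the 9 against 0.125% of all genes, with 0 below an unadjusted p of 0.05 (4.21% of all genes), and DESeq2 called 0 against 0.574%. With the replicate block the share of all genes was 0.633%, and 0 of the 9 were called. In differentiated cells edgeR called 0 of the 9 against 0.099% of all genes, with 0 below an unadjusted p of 0.05 (4.42%). DESeq2 called 0 against 0.402%, and the blocked share of all genes was 0.554% with 0 of the 9 called. No member was free of overlap under heat in either medium, against 7.62% of all genes in undifferentiated and 7.9% in differentiated cells. The medians over the 9 were -0.15 in undifferentiated and 0.04 in differentiated cells, beside 0.01 and -0.00255 over all genes. Beside background shares this small, 0 of 9 is not a result about these genes. The difference between the heat effects in the 2 media was tested as an interaction. EdgeR called 0 of the 9 for it, against 0% of all genes, with 0 below an unadjusted p of 0.05 (0.581% of all genes), and DESeq2 called 0.

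The recovery comparisons asked whether transcripts moved after the return to 37 °C. The lowest group mean was at 2 h for STAT5A, STAT5B, STAT3, SOCS2 and PRLR, and the STAT5 genes were higher again at 6 h. PRLR lay near the counting floor, with 22 reads in D2R and 26 in D6R. STAT3 hardly differed between D2R (79.4 ± 12 CPM) and HSD (80.7 ± 12.4 CPM; SD, n = 3). From 2 h to 6 h STAT5A stood at 7.57 ± 0.881 and 11.4 ± 2.02 CPM (SD, n = 3), without overlap and higher in 3 of 3 replicate pairs. Its log2 fold change was 0.59 (SE 0.206, 95% interval 0.15 to 1.02), with an unadjusted p of 0.0113 and an adjusted p of 1 in edgeR. With the replicate block the log2 fold change was 0.57 and the adjusted p 0.202. STAT5A passed in a blocked fit without replicate number 1 (log2 fold change 0.78, edgeR adjusted p = 0.0302), where 547 genes were called, and in no other setting tried; without replicate number 2 the adjusted p was 0.997. The part that the overlap of D2R and D6R in HSPA1A, given above, has in this comparison was not tested.

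STAT5B differed from 2 h to 6 h by 0.38 on the log2 scale (95% interval -0.01 to 0.76), and was higher in 3 of 3 pairs. SOCS2 differed by 0.43 (95% interval -0.16 to 1.02), with 5.77 ± 1.39 CPM at 2 h and 7.8 ± 1.42 CPM at 6 h (SD, n = 3), and was higher in 2 of 3 pairs. With the block, STAT5B (edgeR unadjusted p = 0.0376, adjusted p = 0.387) and SOCS2 (unadjusted p = 0.0196, adjusted p = 0.325) had unadjusted p-values under 0.05. So of the 9 genes, 0 were called from 2 h to 6 h, against 0% of all genes without or with the block, and DESeq2 called 0 against 0.0198%. At an unadjusted p under 0.05 edgeR had 1 of the 9 against 3.86% of all genes, and 3 of the 9 with the block, against 11.9%; DESeq2 had 2 of the 9, STAT5A and STAT5B, against 4.59%. Without overlap were 1 of the 9 (STAT5A) and 7.71% of all genes. The median over the 9 was 0.19, with 7 higher and 2 lower, beside 0.01 over all genes, of which 50.8% were higher. That median was the value of PRLR, which lay near the counting floor (95% interval -1.56 to 1.93). With the block the median over the 9 was 0.14.

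Against unheated differentiated cells, SOCS2 at 2 h of recovery was differed by -0.435, -0.548 and -0.495 on the log2 scale in replicates 1, 2 and 3. Its fitted log2 fold change was -0.49 (95% interval -1.08 to 0.10), and with the replicate block its unadjusted p was 0.0141 and its adjusted p 0.352 in edgeR. Of the 9 genes 0 were called at 2 h, against 0.0792% of all genes, 0 with an unadjusted p under 0.05 (3.08% of all genes), and DESeq2 called 0 against 0.218%. With the block 0 were called against 0.224%, and 1, SOCS2, had an unadjusted p under 0.05, against 10.2%. Without overlap were 0 of the 9, against 6.6% of all genes. The median over the 9 was -0.24, with 2 higher and 7 lower, beside -0.01 over all genes, of which 48.8% were higher. At 6 h edgeR called 0 of the 9 against 0.0132% of all genes, with 0 below an unadjusted p of 0.05 (6.07%). DESeq2 called 0 against 0.231%, and with the block 0 were called against 1.45%. JAK2 was the 1 of 9 whose libraries did not overlap at 6 h, against 9.7% of all genes, at a log2 fold change of 0.17 (95% interval -0.10 to 0.45).

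Against the end of the heat, 8 of the 9 genes were lower at 2 h and SOCS3 was higher, at 0.24 on the log2 scale (95% interval -0.19 to 0.67). Of all genes, 47% were higher. Among the lower ones, JAK2 (-0.01) and STAT3 (-0.02) hardly differed, and PRLR lay near the counting floor. The median over the 9 was -0.21, beside -0.01 over all genes. EdgeR called 0 of the 9 against 0.0528% of all genes, with 0 below an unadjusted p of 0.05 (3.53%). DESeq2 called 0 against 0.284%, and with the block 0 were called against 0.389%. STAT5A was the 1 of 9 without overlap, against 9.03% of all genes. The recovery comparisons share control libraries with each other and with the heat comparison, so a low D2R group enters several of them.

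**Figure D3:**
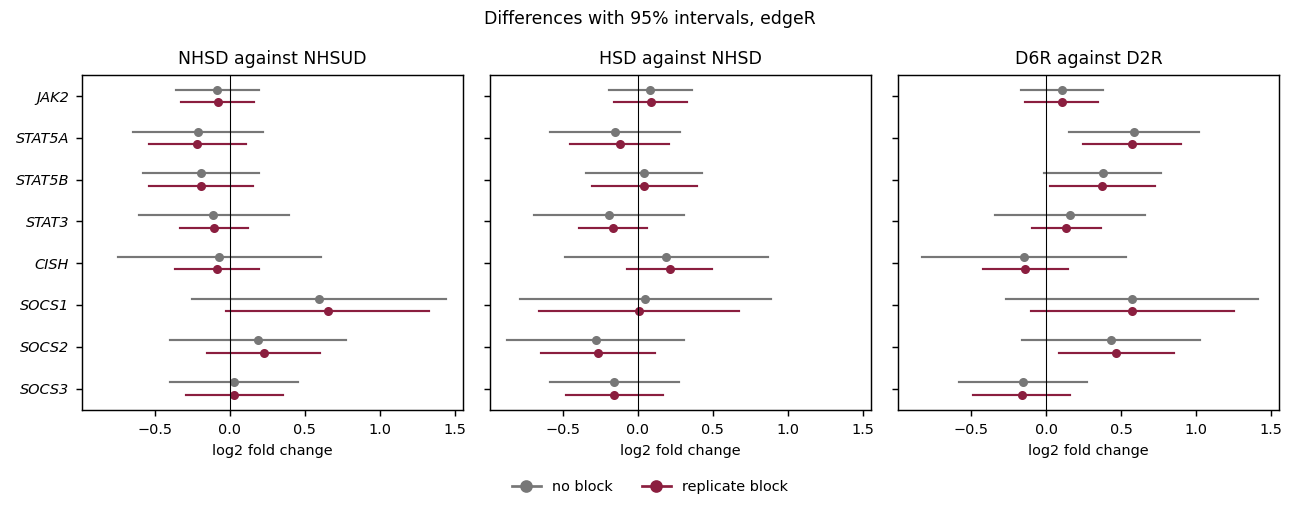
Log2 fold changes with 95% intervals from edgeR for the 8 well-counted genes, in lactogenic against basal medium (left), heat in differentiated cells (middle) and 6 h against 2 h of recovery (right), without (grey) and with (red) the replicate number as a block. Nearly all intervals cross 0, and on the right the intervals of STAT5A (0.15 to 1.02 without the block) and the blocked intervals of STAT5B (0.02 to 0.73) and SOCS2 (0.08 to 0.85) lie above 0, where no gene passed after adjustment over all genes.

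The next comparison was between the 3 replicate numbers, over all 6 groups. CISH, STAT3 and STAT5A were highest in replicate 3, SOCS2 was highest in replicate 1, and SOCS3 and PRLR were highest in replicate 2. For CISH the mean over the 6 groups was 6.41 ± 0.779 CPM in replicate 1, 8.32 ± 0.968 in replicate 2 and 11.5 ± 1.7 in replicate 3 (SD, n = 6). STAT3 followed the same order at 71.5 ± 3.09, 84.2 ± 9.26 and 108 ± 16.3 CPM. SOCS2 ran the other way at 8.3 ± 1.25, 7.04 ± 1.48 and 5.54 ± 1.09 CPM. SOCS3 and PRLR had their top library in replicate 2 in 5 of 6 groups, and 97 of the 178 PRLR reads were in replicate 2.

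In a test of the replicate number over all 15158 genes, edgeR called 6 of the 9, against 53.6% of all genes, so the share is near the background and is not particular to this route. The called genes were CISH (replicate 3 against 1, log2 difference 0.84, adjusted p = 3.66e-06), STAT3 (0.59, 1.71e-05), SOCS2 (-0.60, 0.0028), STAT5A (0.34, 0.0344), and, for replicate 2 against 1, SOCS3 (0.33, 0.0376) and PRLR (1.41, 0.0331). SOCS1 (adjusted p = 0.0563), STAT5B (0.515) and JAK2 (0.732) did not pass in edgeR. SOCS1 did pass in edgeR with no low-count filter (0.0364) and without replicate 2 (0.049) or 3 (0.03) of NHSD, replicate 2 of D2R (0.0308) or replicate 1 of D6R (0.0175). DESeq2 called 7 of the 9, adding SOCS1 (0.0361), against 56.9% of all genes. The widest difference between replicate numbers was 0.40 for the median gene tested and 0.47 for the median called gene, so CISH, at 0.84, was wider and JAK2, at 0.07, narrower than most.

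CISH, STAT3 and SOCS2 passed whichever single library was left out. PRLR passed in only 6 such fits: without replicate 2 or 3 of NHSUD, without replicate 1 of HSD, and without any of the 3 D2R libraries. STAT5A was lost in 8 of 18, without replicate 1 or 3 of NHSUD, any NHSD library, replicate 1 of HSUD, or replicate 1 or 3 of D6R, with adjusted p between 0.054 and 0.142. SOCS3 was lost in 8 of 18, without replicate 1 of NHSUD or NHSD, replicate 1 or 2 of HSUD, replicate 2 of HSD, replicate 2 or 3 of D2R, or replicate 2 of D6R, with adjusted p between 0.0519 and 0.147. PRLR was also lost with no low-count filter (adjusted p = 0.0795), and STAT5A with scaling by library size alone (adjusted p = 0.0729).

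**Figure D4:**
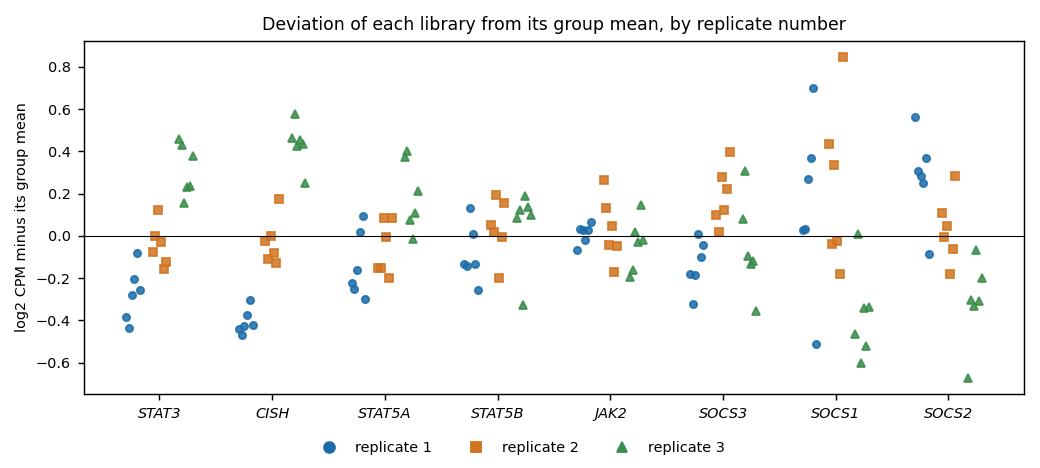
Log2 CPM of each library minus the mean of its group for the 8 well-counted genes, with symbols and columns for the 3 replicate numbers and 6 points for each. CISH and STAT3 lie above 0 in replicate 3 and below it in replicate 1 in all 6 groups, SOCS2 shows the reverse in replicate 3, and JAK2 shows no such order.

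The spread of each gene over the 18 libraries was also divided into parts. Between replicate numbers lay 79.2% of the spread in log2 CPM for CISH and 73.5% for STAT3, and between groups 15.9% and 12.2%. STAT5A had 49.1% between groups and STAT5B 43.1%, above the 27.6% of the median gene tested. Their parts between replicate numbers were 25.8% and 8.91%, below the 34.9% of the median gene. JAK2 had 76.2% of its small spread in neither. These shares are not corrected for the number of groups or of replicate numbers. By chance alone, some spread falls between groups, and more than between the fewer replicate numbers. The shares are therefore not effect sizes. In edgeR's test of any difference among groups, unadjusted p was 0.0907 for STAT5A (0.0164 with the block). For STAT5B it was 0.317 (0.224 with the block), and neither gene passed after adjustment. EdgeR's estimate of variation beyond counting noise is the square root of its dispersion, unlike the SD over the mean given for JAK2. Taking the replicate number into account lowered that estimate from 28.1% to 11.6% for CISH and from 20.9% to 10.1% for STAT3. The common value over all genes went from 24.5% to 14%.

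How the genes moved with each other depended on whether the replicate number was removed. Over the 18 libraries, Pearson's r between STAT3 and CISH was 0.77 as measured and 0.05 after the mean of each replicate number was subtracted. Between CISH and SOCS2 it was -0.70 and -0.21. STAT5A kept its likeness to STAT3, at 0.76 and 0.74, and to STAT5B, at 0.62 and 0.61. These 18 points share runs, library depth and composition, and are given as a description.

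The genes whose profile was most like each member after that subtraction were taken from 9763 genes with a mean of at least 5 CPM. STAT3 was nearest to STAT6 (r = 0.927) and CELSR1 (0.924), and STAT5A to KLHL18 (0.904) and BRD3 (0.9). STAT5B was near HIPK1 (0.852), JAK2 to STK17B (0.82) and STAG2 (0.803), and CISH to NANP (0.855) and MAT2A (0.834). Among the inhibitors, SOCS1 was nearest to VRK3 (0.837) and TMEM129 (0.795), SOCS2 to TMEM170B (0.791) and USP25 (0.79), and SOCS3 to TOM1 (0.84) and C16H1orf116 (0.834). PRLR had the lowest leading values, CCHCR1 (0.752) and TMC4 (0.737), on a median of 8 reads. All are Pearson's r over the same 18 libraries, picked as the highest among those 9763.

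Around the 10 genes, a list of 70 others of JAK-STAT signalling gave context: family members, ligands and receptors, phosphatases and adaptors, targets and milk genes. All 70 were in the table and 56 were tested. None of the 6 milk genes was tested: LALBA and CSN1S2 had 0 reads in all 18 libraries, and CSN1S1, CSN2, CSN3 and PAEP had between 1 and 6 reads in total, in basal or lactogenic medium. The hormone gene PRL had 4 reads in all. Without the block edgeR called 0 of the 56 in each of the 9 comparisons, with at most 9 at an unadjusted p under 0.05, at 2 h of recovery against the end of heat, where 3.53% of all genes had one. The test of any difference among the 6 groups called 1 of the 56 without the block, beside 0.33% of all genes. With the block it called 10 of the 56, beside 8.42% of all genes, and DESeq2 called 6, beside 2.87%. These shares are given as a description, and the genes behind them are not named here. By the replicate number edgeR called 30 of the 56, beside 53.6% of all genes, which is not a result about this list.

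With the replicate block, JUNB, FOS and LIF fell and MCL1 rose with heat in undifferentiated cells. JUNB, a component of the AP-1 factor and a STAT3 target, averaged 143 ± 36.8 CPM in NHSUD and 73.5 ± 2.48 CPM in HSUD (SD, n = 3), without overlap, a blocked log2 fold change of -0.93 (SE 0.121, edgeR adjusted p = 0.000258; 0.0979 without the block). FOS, its AP-1 partner, went from 40.6 ± 6.71 to 17.9 ± 1.76 CPM (blocked -1.17, adjusted p = 0.00033; 0.224 without). LIF, a cytokine that activates STAT3, went from 1.78 ± 0.46 to 0.493 ± 0.184 CPM (blocked -1.82, adjusted p = 0.0184; 0.187 without). MCL1, a survival gene, rose from 309 ± 20.5 to 401 ± 13.8 CPM (blocked 0.38, adjusted p = 0.0285; 0.412 without). These 4 of 56, 1 up and 3 down, stand beside 0.633% of all genes called with the block. DESeq2 also called 4 of 56, beside 0.574% of all genes. The list was chosen with earlier results of these data known, so these shares are given as a description.

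In differentiated cells the block gave 3 of 56 for heat, beside 0.554% of all genes: JUNB (-0.71, adjusted p = 0.00547) and FOS (-0.81, 0.0147) fell and MCL1 (0.39, 0.0281) rose, while without the block these had adjusted p-values of 0.406, 0.923 and 0.456 in edgeR. LIF had a log2 fold change of -0.95 there and did not pass (blocked adjusted p = 0.301). JUNB then rose from HSD, at 84 ± 2.71 CPM, to 173 ± 40.2 CPM at 2 h (SD, n = 3; blocked 1.02, adjusted p = 0.000136; 0.103 without). PTPN6, a phosphatase that can remove phosphate from JAK and receptor proteins, stood at 16.9 ± 4.1 CPM in NHSD and 35.9 ± 9.97 CPM in D2R, without overlap (blocked 1.09, adjusted p = 0.0036; 0.118 without), and rose against HSD too (0.79, 0.0344; 0.563 without). IFNAR1, an interferon receptor chain, rose at 6 h against NHSD (0.43, 0.0385; 0.784 without). Beside these counts, the block called 0.224% of all genes at 2 h against NHSD (1 of 56 here). At 2 h against HSD it called 0.389% (2 of 56), and at 6 h against NHSD 1.45% (1 of 56), the last a share near the background. DESeq2 called 1 of 56 for heat in differentiated cells, 1 in each 2 h comparison and 0 at 6 h against NHSD. JUNB and FOS under heat in differentiated cells did not pass in DESeq2 (adjusted p = 0.112 and 0.588). Nor did PTPN6 against HSD (0.125) or IFNAR1 (0.577). MCL1 in differentiated cells, PTPN6 against NHSD and the rise of JUNB at 2 h passed there. In blocked fits without replicate number 1, 2 or 3, JUNB and FOS in undifferentiated cells and the rise of JUNB at 2 h passed each time in edgeR (adjusted p between 0.000502 and 0.0486). Each of the other calls above was lost in at least 1 of these 3 fits: JUNB in differentiated cells without number 3 (adjusted p = 0.199), and MCL1 (in both media) and IFNAR1 in all 3 fits. FOS in differentiated cells was lost without number 2 or 3 (0.245 and 0.203), LIF without number 1 or 3 (0.158 and 0.398), and PTPN6 against NHSD without number 2 or 3 (0.266 and 0.0727) and against HSD likewise (0.463 and 0.755). In the 4 other comparisons the block called 0 of the 56, with 11 at an unadjusted p under 0.05 from 2 h to 6 h, beside 11.9% of all genes, and at most 3 in each of the others.

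**Figure D5:**
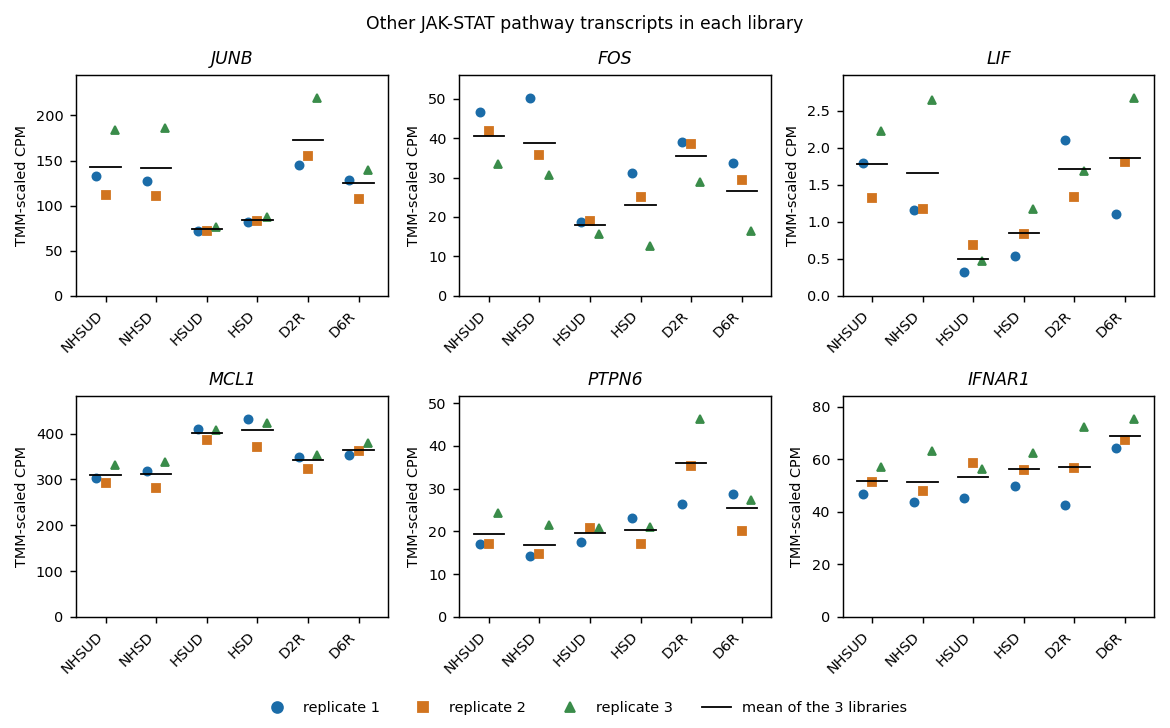
TMM-scaled CPM, by group, of the 6 other JAK-STAT genes called with the replicate block in at least 1 of the 9 comparisons. Genes called only in the test of any group are not shown. Symbols mark replicate numbers and bars the mean of 3 libraries. JUNB, FOS and LIF are low in HSUD and MCL1 is high in both heated groups (401 and 409 CPM), whereas PTPN6 is highest in D2R.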

How the data were processed

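Poly(A) RNA of 18 libraries was sequenced as paired-end reads, which the authors trimmed with fastp 0.23.2 and aligned with STAR 2.7.9a to ARS-UCD 1.3, per the labels' protocols. The deposited table holds raw counts per gene, 1 column per library; featureCounts 2.0.3, DESeq2 and limma are named without a role, per the submitters' processing notes, and the treatment of strand, of read mates and of multi-mapped reads is not given in the sources used here. Columns were matched to libraries by label, with 0 columns left over, and no library pair matched as a duplicate.

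Genes were filtered with edgeR 4.0.16 in R 4.3.3 (filterByExpr, minimum count of 10), scaled by TMM, and fitted to the 18 libraries together with a mean for each group. Contrasts used the two-sided quasi-likelihood test with Benjamini-Hochberg adjustment over 15158 genes, and adjusted p under 0.05 was called. Standard errors come from the F statistic. An exact permutation test of 3 against 3 libraries cannot go below p = 0.1, so none was run. Log2 CPM used a prior count of 2. The edgeR fits with and without the block were run on simulated counts, for 6 h of recovery against unheated cells only. Only genes with a mean of at least 10 reads were changed there. The other comparisons, the replicate-number test and DESeq2 were not simulated, and no outcome is given here.

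Replicate numbers were taken to pair libraries, as the labels describe 3 runs. Deviations from group means correlated over 0.1 in 45 of 45 same-numbered pairs (0.135 to 0.596). The median over other pairs across groups was -0.199. Deviations within a group cancel out, so positive same-numbered values push the other pairs negative, and that median is not a separate observation. The fit without the block was kept as the first one, and the blocked fit is given where it moves a count. Alternatives were DESeq2 1.42.0, its size factors, library size alone, other filters, only the compared groups, each library left out and, added after seeing the data, blocked fits without a replicate number.

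The 10 genes, the lists and the tests were chosen with earlier results of these data known. All 10 are described; from the list of 70, at most 4 genes per comparison called with or without the block are named, by smallest p, and for each tested gene the 2 most alike. A most-alike gene of STAT5B and a gene of the marker lists are not reported here. RefSeq's gene table of another assembly was used for gene order only, so no coordinates are given, and sequences were not used here.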

Additional observations from a re-analysis of the deposited data

How the results depend on the processing

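Across 9 comparisons and the test of any group, no alternative called any of the 9 genes, except a blocked fit without replicate 1 that called 1, STAT5A, from 2 h to 6 h of recovery. The counts of all genes moved more. With the replicate block as a pairing of libraries, edgeR called 1 gene for the medium without heat and 3 with heat, 96 for heat in undifferentiated and 84 in differentiated cells, 34 at 2 h and 220 at 6 h against unheated cells, 59 at 2 h against the end of heat and 1276 for any group; it changed no call of the 9 genes. DESeq2 called 87, 61, 33, 35, 43 and 435 for heat without and with lactogenic medium, 2 h and 6 h against unheated, 2 h against heat and any group, and 3 from 2 h to 6 h. With only the compared groups in the fit, the counts were 9 for heat in undifferentiated cells, 0 for 2 h and 0 for 6 h against unheated cells and 4 for 2 h against the end of heat. Leaving out 1 library gave 8 to 16 (19 with all) and 8 to 13 (15) for heat in undifferentiated and differentiated cells, 4 to 25 (12) and 2 to 9 (2) for 2 h and 6 h against unheated cells, 4 to 6 (8) for 2 h against heat, 0 to 7 (0) from 2 h to 6 h, and 32 to 56 (50) for any group; the 25 came without D2R replicate 1, and the 9 and 7 without D6R replicate 1. By replicate number, 3 to 6 of the 9 genes were called when 1 library was left out. Blocked fits without replicate 1, 2 or 3 gave, in that order, 73, 30 and 36 genes for heat in undifferentiated cells, 141, 4 and 6 at 2 h and 330, 5 and 4 at 6 h against unheated cells, 71, 23 and 22 at 2 h against heat, 501, 22 and 22 for heat in differentiated cells, and 547, 0 and 0 from 2 h to 6 h. Without replicate 1 they gave 1 and 4 for the medium without and with heat. The cause was not tested. For the medium without heat, log2 fold changes that turned sign when a library was left out ranged from -0.177 to 0.055 for JAK2, -0.36 to 0.15 for STAT3, -0.42 to 0.20 for CISH, -0.080 to 0.51 for SOCS2 and -0.15 to 0.18 for SOCS3 (-0.10 in a blocked fit without replicate 3). Depth limits PRLR and ELF5.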
